A study of Mus musculus with 8 samples.

Results

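The cytosolic ribosomal protein genes were taken by name: every gene whose symbol is Rpl or Rps followed by a number, with an optional a, x, y or l and a further digit, and also Rpsa, Rplp0, Rplp1, Rplp2 and Fau. Ribosomal S6 kinase genes and names ending in -ps were left out. The rule took 84 of the 22026 genes in the tables, 51 of the large and 33 of the small subunit. Reads were found for 82 of them. Rpl10l and Rpl39l had no read in any of the 8 libraries, Rpl3l had too few to be tested, and 81 genes entered the tests.

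The libraries came from TS/A and 4T1, transplantable breast cancer cell lines of BALB/c mice. Per the sample characteristics, the groups were TS/A with a virus vector expressing Gpr56 (now Adgrg1, an adhesion G protein-coupled receptor), TS/A with the empty vector, 4T1 with the Gpr56 vector and 4T1 with the empty vector, with 2 libraries each. All groups share the transduction and 72 h in RPMI with 10% FCS, and the design text places the transduced cells with type III collagen. The titles give another contrast, Emp_Control against Emp_ColIII, for the same libraries, so the tested factor is named here as the characteristics name it. No promoter, clone or infection rate of the vectors is stated, and the labels do not say whether the paired libraries are from different culture dishes. P-values therefore measure only the spread between these libraries, which may be technical. Adgrg1 had 90.5 and 100.1 CPM (reads scaled to the library total) in the 4T1 Gpr56 libraries, against 2.53 and 2.77 CPM in the 4T1 empty libraries. In TS/A it had 22.6 and 13.3 CPM in the libraries labelled Gpr56, against 34.8 and 16.3 CPM in those labelled empty, so the level of the gene does not follow the TS/A labels.

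A ribosome holds 1 copy of nearly every ribosomal protein beside the ribosomal RNAs, and cells make the proteins of both subunits in matched amounts. Their short, abundant mRNAs begin with a cytosine followed by a run of pyrimidines, the 5′ terminal oligopyrimidine (TOP) tract, through which the growth-regulating kinase mTOR and the RNA-binding protein Larp1 set their translation. Several of the proteins also act outside the ribosome, Rpl5 and Rpl11 as inhibitors of Mdm2 when ribosome assembly fails. Mammalian genomes carry many retrocopies of these genes, some nearly identical to the parent mRNA.

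Depth ran from 10510569 reads in 4T1 Gpr56 library 2 to 25959142 reads in the TS/A library labelled Gpr56 1. The tables give whole reads per transcript and RPKM (reads per kilobase of transcript, scaled to depth), and reads were summed per gene. Replicate libraries in 4T1 were close, whereas TS/A empty library 1 stood apart, and values without it are given beside the gene counts in TS/A and between lines. Of 8 epithelial carcinoma markers (Epcam, Cdh1, Krt8, Krt18, Krt7, Cldn4, Cldn7, Esrp1), all had reads in every 4T1 library, with summed levels of 3185 and 3141 CPM in Gpr56 libraries against 2203 and 2170 CPM in empty ones. In TS/A the same sum was 162 and 202 CPM in libraries labelled Gpr56 and 158 and 159 CPM in those labelled empty. Krt18 made up nearly all of it, and Epcam, Cdh1 and Krt8 stayed below 1 CPM. The defining immune markers Ptprc and Cd3e and the endothelial markers Pecam1 and Emcn were at or near 0 in every library.

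To show the tract, 30 bases around the RefSeq start (GRCm38.p6) are given for 6 genes, with the nearest pyrimidine run in capitals. Rps10, Rps15a and Rpl39 were among those lower in 4T1 with Gpr56, Rpl22l1 among those higher in TS/A, and Rps26 and Rpl14 among those lower in TS/A.
Rps10, chr17:27635224-27635253, minus strand: cgcacgCCCCTTCCTTTCCagcctccgcct
Rps15a, chr7:118116124-118116153, minus strand: tgccatCTTCCCTCgccggtgagtgagtgt
Rpl39, chrX:37085193-37085222, minus strand: tagcgaCTTCTTCTaatcgcgttcttccgg
Rpl22l1, chr3:28805505-28805534, plus strand: cccgttCTCTTCCCacggctgcagctcaac
Rps26, chr10:128626479-128626508, minus strand: ccggatCCTCTTTCgagtcttggctccaag
Rpl14, chr9:120571503-120571532, plus strand: ggcgggCCCTCTCTCTTCTCgctgagcgcc
The first capital is the annotated start itself in Rps15a. It lies 6, 3 and 4 bases after the start in Rpl39, Rpl22l1 and Rps26, and 3 and 8 bases before it in Rps10 and Rpl14, whose runs cross the start. A run was counted when it began with C, held at least 7 bases of C or T on the sense strand and started within 20 bases of an annotated start. By that count 36 of the 64 ribosomal protein genes with a start in the table held one (56.2%), against 2204 of 9301 other tested genes (23.7%). Of the 35 tested genes with a run, 10 had it begin at or after the annotated start, 17 had it cross the start and 8 had it wholly before the start, outside the annotated mRNA. Among the mitochondrial ribosomal protein genes, 17 of 68 held one (25%). The median log2 fold change between lines was 0.31 for the 35 tested genes with a run and 0.26 for the 26 with a start and no run, and the medians for the vector in 4T1 fitted alone were -0.14 and -0.18.

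Ribosomal protein genes took up a large part of every library. Their share of all gene reads was 8.18% and 7.88% in the 4T1 Gpr56 libraries, against 8.65% and 8.95% in the 4T1 empty libraries. The 95% Wilson intervals of these shares are no wider than 7.86 to 7.90% (4T1 Gpr56 library 2) and cover counting error only. In TS/A the share was 10.1% and 11.3% in the libraries labelled Gpr56 and 7.57% and 11.7% in those labelled empty. Both 4T1 Gpr56 libraries lay below both empty ones, and the TS/A groups overlapped, with empty library 1 lowest of all 8 and empty library 2 highest. The TS/A difference was -1.05 percentage points without empty library 1 and 3.12 without empty library 2. Permuting labels exactly (two-sided) gave p = 0.333 in 4T1, the smallest that 2 against 2 allows, and p = 1 in TS/A. Over both lines, with labels permuted within each line, the libraries labelled Gpr56 differed from those labelled empty by 0.132 percentage points (exact permutation p = 1). Between lines, the mean share was 10.2% ± 1.87 in TS/A and 8.42% ± 0.477 in 4T1 (SD, n = 4 each), which overlapped (exact permutation p = 0.143).

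Counted per length, as a share of summed RPKM, the genes made up 22.2% and 24.0% in the TS/A libraries labelled Gpr56 and 18.3% and 24.4% in those labelled empty. In 4T1 they made up 19.5% and 19.0% with Gpr56 and 20.3% and 20.7% with the empty vector. The 8 libraries kept the same order on the per-length scale, and the line difference again overlapped (exact permutation p = 0.171).

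**Figure D1:**
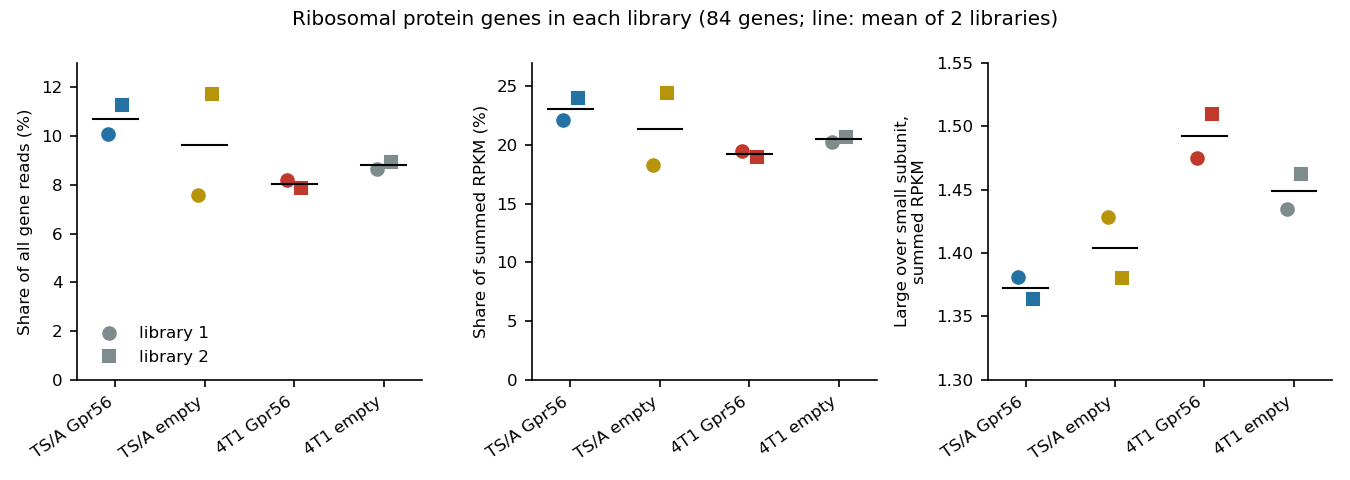
Share of all gene reads (left, %), share of summed RPKM (middle, %) and ratio of summed RPKM of large over small subunit genes (right) in each of the 8 libraries, with circles for library 1, squares for library 2 and lines for the mean of 2. TS/A empty library 1 lies at 7.57% of reads and its partner at 11.7%, while in the right panel, whose axis does not start at 0, all TS/A libraries lie below all 4T1 libraries.

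Under the genes' own names, the balance between the subunits differed between the lines by a small amount. The ratio of summed RPKM of large over small subunit genes was 1.38 and 1.36 in the TS/A libraries labelled Gpr56 and 1.43 and 1.38 in those labelled empty, against 1.48 and 1.51 in the 4T1 Gpr56 and 1.43 and 1.46 in the 4T1 empty libraries. TS/A averaged 1.39 ± 0.0278 and 4T1 1.47 ± 0.0309 (SD, n = 4 each), with no overlap and an exact permutation p = 0.0286, the smallest that 4 against 4 allows. From reads in place of RPKM the lines overlapped and p was 0.0571, and without Rplp1, the most abundant gene, the RPKM difference was -0.0501, against -0.0821 with it. Without TS/A empty library 1 it was -0.0954. Reads listed under near-identical copies, described below, are in neither sum, and their part in the ratio was not tested. Between libraries labelled Gpr56 and empty the ratio differed by 0.044 in 4T1 (exact permutation p = 0.333) and by -0.032 in TS/A (exact permutation p = 0.667). The smallest p that 2 against 2 allows is 0.333, so neither test could pass 0.05. Both 4T1 Gpr56 ratios lay above both 4T1 empty ones, and the TS/A groups overlapped. Over both lines the difference by label was 0.0058, with an exact permutation p = 0.778 within lines.

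Single genes spanned a wide range. Rplp1, a protein of the acidic stalk that recruits elongation factors, had the highest mean over the 8 libraries at 3729 RPKM, followed by Rpl41, the shortest ribosomal protein, at 3674 RPKM. Rpsa, which doubles as a laminin receptor, averaged 3297 RPKM, Rps24 3002 RPKM and Rpl19 2833 RPKM. The lowest were Rpl3l, Rps12, Rpl7l1, Rps20 and Rpl22l1. Rps20 averaged 198 RPKM, and its listed length of 3706 nt, the longest of the tested genes, enters that value. Rps12, a small subunit protein, averaged 59.1 RPKM, and nearly all reads of its sequence were listed under another name.

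That case was not alone. Each gene's main transcript was compared with the transcripts of all other listed genes, and 5 genes had copies that share at least 30% of its 50-base words and hold at least 10% of the joint reads. For Rps12 the copy is Rps12-ps3 (chr19:59322290-59322783), which held 97.9% of the joint reads over the 8 libraries. The 396 coding bases of Rps12 and Rps12-ps3 are the same letter for letter in GENCODE M21, as the first 60 show, given here once because a read from either would carry them.
Rps12 and Rps12-ps3, coding bases 1 to 60: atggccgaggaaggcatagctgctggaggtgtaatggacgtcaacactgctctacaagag
Rps18, which sits at the head of the small subunit, had a pair of such copies, Gm10260 (chr13:97760072-97760632) and Gm11361 (chr13:28257528-28258134), and they held 89.3% of the joint reads. Gm10260 differs from Rps18 at 4 of 456 coding bases and Gm11361 at 3. A stretch with 1 of the 4 differences, in capitals, shows how little separates a read of one from a read of the other.
Rps18, coding bases 156 to 215: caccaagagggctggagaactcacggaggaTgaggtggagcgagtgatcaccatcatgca
Gm10260, aligned stretch: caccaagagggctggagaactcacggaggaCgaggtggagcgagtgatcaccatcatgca
The large subunit gene Rpl10, which joins late in assembly, shares all 603 compared coding bases with Rpl10-ps3 (chr9:50344201-50344968), which held 73.6% of the joint reads. Rpl35 and Gm2000 (chr1:156366040-156366484) differ at 1 of 369 coding bases, and Gm2000 held 56.95% of their reads. In the stretch around that base it is again in capitals.
Rpl35, coding bases 87 to 146: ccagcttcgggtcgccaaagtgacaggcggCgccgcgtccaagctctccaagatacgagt
Gm2000, aligned stretch: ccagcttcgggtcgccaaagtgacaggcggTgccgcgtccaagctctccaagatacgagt
For Rpl21 the copy is BC004004, with 18.02% of the joint reads. How the authors' counting divided reads between such pairs is not given in the sources used here, so the values of these 5 genes under their own names are uncertain. Adding the copies to the 84 genes raised their share of reads to 8.62% and 8.27% in 4T1 Gpr56 and 9.10% and 9.43% in 4T1 empty libraries. Rps27 shares 98.7% of its words with Rps27rt, which held 3.8% of their joint reads.

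In 4T1, most ribosomal protein genes had slightly lower values with the Gpr56 vector, and whether that was called depended on the libraries in the fit. With all 8 libraries in 1 fit, edgeR's quasi-likelihood test called 0 of 81 (27 of 11970 tested genes, 0.226%, were called in either direction). At an unadjusted p under 0.05, 2 were lower and 0 higher, and DESeq2 and limma-voom also called 0. The median log2 fold change of the 81 genes was -0.16, against 0 for all tested genes, and 71 were negative. In bulk RNA, fewer cells with a transcript and less of it per cell cannot be told apart.

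Fitting the 4 libraries of 4T1 alone, where the biological coefficient of variation was 5.47% against 14.7% with TS/A included, 43 of 81 were lower and 0 higher. The background there was 11.3% of 11361 genes lower and 22.8% called in either direction. By subunit, 25 of 48 large and 18 of 33 small subunit genes were lower. In TMM-scaled CPM the Gpr56 libraries lay below the empty ones without overlap for 57 of 81 genes and above for 3 (Rpl24, Rplp1 and Rps26), where 30.4% and 29.5% of all tested genes did so. The epithelial marker sum, the immune marker Cd68 (13.5 and 17.6 CPM with Gpr56, 6.59 and 6.47 CPM with the empty vector) and the summed fibroblast markers (8.49 and 9.42 CPM with Gpr56, 15.0 and 15.0 CPM with the empty vector, nearly all Pdgfra) also moved with the groups, and their part in the result was not tested. In depth, Gpr56 library 1 lay between the empty libraries and Gpr56 library 2 was the shallowest. Gpr56 library 2 had the lowest TMM-scaled CPM of the 4 libraries for 56 of the 81 genes, and Gpr56 library 1 for 19. The part of depth in the result was not tested. Leaving out 1 library of the 4, the count of lower genes was 31 without empty 1, 17 without empty 2, 56 without Gpr56 1 and 43 without Gpr56 2. The background of lower genes in these fits was 6.32%, 5.45%, 12.2% and 10.3% in the same order.

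Rpl7l1, a paralogue of Rpl7 found in human cells in early precursors of the large subunit, had the largest decrease. It had 78.2 and 84.2 RPKM in 4T1 Gpr56 libraries, against 116 and 112 RPKM in 4T1 empty libraries, a log2 fold change of -0.62 ± 0.060 (SE; 0.65-fold, adjusted p = 4.39e-06, edgeR, 4T1 alone). The groups were well separated, and it was negative with each library left out (-0.70 to -0.55). Its parent Rpl7 had 1555 and 1520 RPKM with Gpr56, against 1641 and 1595 RPKM with the empty vector, and fell by 0.17 ± 0.057 (adjusted p = 0.0425). Rpl7 was called in 4T1 alone without Gpr56 library 1 (-0.26), and not without Gpr56 library 2 (-0.086) or either empty library. Rpl7l1 was thus a low-level gene with a larger drop than its abundant parent, although the difference between them was not tested. The other paralogues were not called in 4T1, Rpl22l1 at -0.11 ± 0.105 (adjusted p = 0.487, edgeR, 4T1 alone) and Rps27l at -0.11 ± 0.067 (adjusted p = 0.241). Their parents were, Rpl22 with a fall of 0.27 ± 0.058 (adjusted p = 0.00345) and Rps27 with a fall of 0.35 ± 0.092 (adjusted p = 0.0132), as was Rpl3 (-0.18 ± 0.048, adjusted p = 0.0154). Rpl22 was not called without empty library 2 (-0.20). Rps27 was at -0.58 without Gpr56 library 1 and -0.16 without Gpr56 library 2, and it was not called with the length trend removed (-0.23, adjusted p = 0.0822, edgeR, 4T1 alone). Rpl22l1 had 184 and 132 RPKM with Gpr56, against 165 and 174 RPKM with the empty vector, so its groups overlapped.

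Rpl34, a large subunit protein, had 1049 and 943 RPKM in 4T1 Gpr56 libraries, against 1291 and 1316 RPKM in empty ones, and fell by 0.41 ± 0.059 on the log2 scale (adjusted p = 0.000151, edgeR, 4T1 alone). For Rps10, a small subunit protein near the mRNA entry side, the values were 1298 and 1234 RPKM against 1538 and 1653 RPKM, with a log2 fold change of -0.41 ± 0.060 (adjusted p = 0.000183). Rps28, at the mRNA exit side, had 1025 and 1060 RPKM with Gpr56, against 1252 and 1289 RPKM with the empty vector (-0.38 ± 0.055, adjusted p = 0.000159). Neither group of these 3 genes overlapped the other. Rpl36 had 926 and 711 RPKM against 998 and 1101 RPKM, and Rpl39, which lines the exit tunnel of the nascent chain, had 860 and 708 RPKM against 969 and 1016 RPKM. Both fell, by 0.39 ± 0.091 (adjusted p = 0.00649) and by 0.37 ± 0.074 (adjusted p = 0.0021), with wider gaps between the Gpr56 libraries than Rpl34, Rps10 or Rps28 had. Leaving out 1 library moved Rpl36 between -0.60 and -0.21 and Rpl39 between -0.53 and -0.24, lowest without Gpr56 library 1 and nearest to 0 without Gpr56 library 2. The uncertain gene Rps18 had 178 and 418 RPKM with Gpr56 and 293 and 239 RPKM with the empty vector, and its log2 fold change of 0.09 was not called. Adding its copies was an alternative chosen after seeing the data. With them, Rps18 had 1034 and 1092 CPM in the Gpr56 and 1390 and 1419 CPM in the empty libraries. It fell by 0.44 ± 0.052 (adjusted p = 2.49e-05, edgeR, 4T1 alone).

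**Figure D2:**
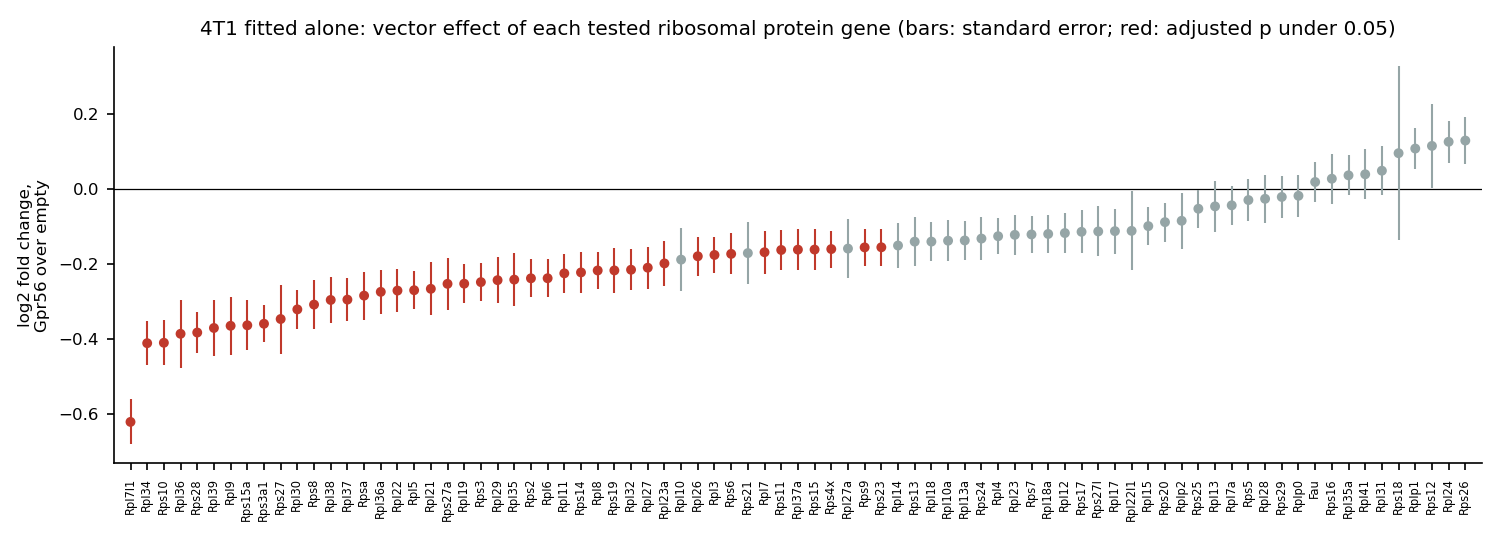
Log2 fold change of each of the 81 tested ribosomal protein genes in 4T1 fitted alone, Gpr56 over empty (vertical axis), sorted by size along the horizontal axis, with bars for the standard error and red for adjusted p under 0.05. All 43 red points lie below 0, Rpl7l1 is lowest at -0.62, and Rps26 is highest at 0.13 without being called.

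The fall was also seen with other scalings. Scaling by total reads instead, 4T1 fitted alone gave 34 genes lower and 1 higher (background 9.17% lower and 14.3% higher). Removing each library's trend of level on transcript length gave 30 lower and 3 higher (background 11.6% lower), and all 30 were among the 43. In 4T1 fitted alone, the median under 600 nt was -0.16 for 26 ribosomal protein genes and -0.07 for 107 other genes, and from 800 to 1200 nt it was -0.16 for 20 and 0.00098 for 775, a difference that was not tested.

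Genes of related function, from lists chosen with earlier results of these data known, are given by count for 4T1 fitted alone. The background in that fit was 11.3% of 11361 tested genes lower and 11.5% higher, and no difference from it was tested. Of 21 other translation genes listed as TOP-type, 8 were lower and 0 higher in 4T1 fitted alone, with a median log2 fold change of -0.12. By the count of runs above, 10 of the 17 genes of this list with an annotated start held one (58.8%). The translation initiation factor Eif3e fell by 0.50 ± 0.058 (adjusted p = 2.35e-05) and the poly(A)-binding protein Pabpc1 by 0.21 ± 0.056 (adjusted p = 0.0118). Of 52 ribosome biogenesis genes, 8 were lower and 2 higher, with Wdr43 at -0.44 and the RNA polymerase subunit Polr1c at -0.45 on one side and Imp3 at 0.34 and Imp4 at 0.28 on the other. Among 23 regulators of ribosomal protein synthesis, 6 were lower and 2 higher. Of the mTOR inhibitors, Ddit4 and Sesn2 fell by 0.91 ± 0.127 and 0.65 ± 0.162, while Akt1s1 rose by 0.27 ± 0.086. Eif4ebp2, which holds back cap-dependent initiation, rose by 0.29 ± 0.062. Mitochondrial ribosomal protein genes were split, with 14 of 77 lower and 7 higher and a median of -0.04. Nuclear-encoded respiratory chain subunits gave 18 of 75 lower and 5 higher, with a median of -0.10.

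In TS/A, no ribosomal protein gene was called between the libraries labelled Gpr56 and those labelled empty. The fit of all 8 libraries with edgeR called 0 of 81 (1 of 11970 genes, 0.00835%, was called), with 1 higher and 0 lower at an unadjusted p under 0.05, and TS/A fitted alone, DESeq2 and limma-voom also called 0. The median log2 fold change was 0.11. Under their own names, the groups did not overlap for 2 genes, Rps18 and Rps29, both higher in the libraries labelled Gpr56 (background 11.2% higher and 10.4% lower). With its copies added, Rps18 was at 0.21 ± 0.327 in the fit of all 8 libraries, against 0.92 ± 0.380 under its own name. Its groups then overlapped, with 2930 and 3440 CPM in libraries labelled Gpr56 and 1734 and 3656 CPM in those labelled empty. In that fit 0 genes were higher at an unadjusted p under 0.05.

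The spread behind this was nearly all in 1 pair. All 81 genes were lower in TS/A empty library 1 than in empty library 2, by a median log2 ratio of -0.80, where the median over all tested genes was 0.046. Empty library 1 was the lowest of the 4 TS/A libraries for 79 of the 81 genes and empty library 2 the highest for 65. In comparison, the median gap was -0.19 between the TS/A libraries labelled Gpr56, 0.09 between the 4T1 Gpr56 libraries and -0.07 between the 4T1 empty libraries. Rps14 shows the size of the gap, with 1430 RPKM in empty library 1 and 3597 RPKM in empty library 2, and 2887 and 3275 RPKM in the libraries labelled Gpr56.

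Without empty library 1, the median log2 fold change in TS/A was -0.22 and 3 genes were lower, 0 higher (background 1.40% lower). Without empty library 2, the median was 0.56 and 68 genes were higher, 0 lower (background 11.2% higher). The direction in TS/A thus turned with which empty library was kept. The difference between the vector effects, TS/A minus 4T1, was called for 0 of 81 genes in the fit of all 8 libraries (0.0668% of all genes), with a median of 0.29, and 1 gene was higher at an unadjusted p under 0.05. DESeq2 and limma-voom called 0 as well. Without TS/A empty library 2, 69 genes were called higher and 0 lower in that difference (background 9.43% and 10%), and without empty library 1, 0 were called (background 1.35% higher and 1.19% lower). The fit without empty library 1 also called 9 ribosomal protein genes lower and 0 higher in 4T1 (background 5.01% lower and 5.48% higher), all 9 among the 43 called in 4T1 alone.

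**Figure D3:**
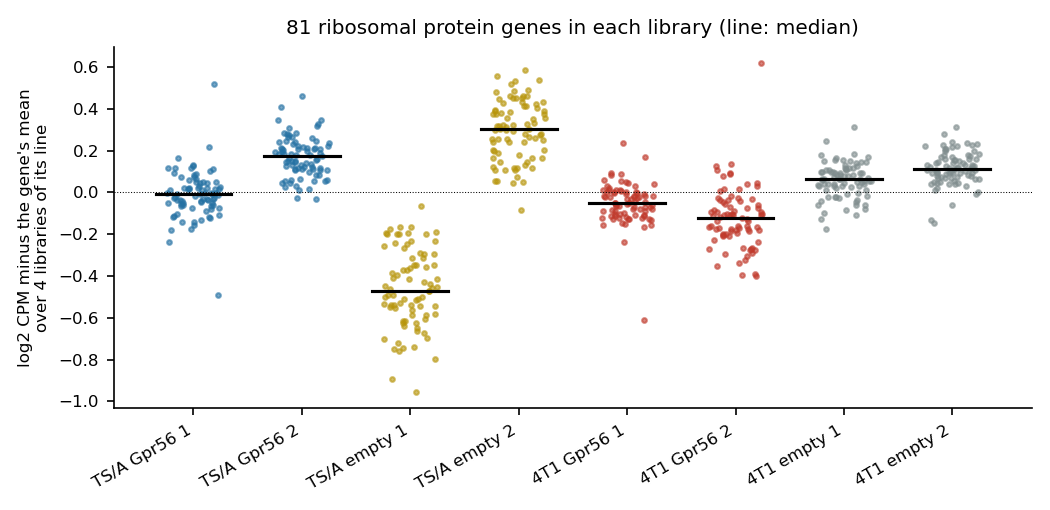
Log2 CPM of each of the 81 tested ribosomal protein genes in each library, minus the gene's mean over the 4 libraries of its line (vertical axis), with 1 point per gene and a line at the median. In TS/A empty library 1 every gene lies below its level in empty library 2, by a median of 0.80, and in 4T1 the Gpr56 libraries sit slightly below the empty ones.

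Between the lines, ribosomal protein genes moved in both directions. In the fit of all 8 libraries, 24 of 81 were higher and 10 lower in TS/A than in 4T1, where 32.8% of all tested genes were higher, 32.4% lower and 65.1% called in all. In this fit a smaller share of ribosomal protein genes than of all genes was therefore called (42.0%). That order was reversed without TS/A empty library 1, and also without TS/A empty library 2. The median log2 fold change was 0.27, against 0.01 for all tested genes, and the groups of 4 did not overlap for 12 genes higher and 9 lower (background 28.9% and 30%). Of the large subunit genes 15 were higher and 8 lower of 48, and of the small subunit genes 9 were higher and 2 lower of 33. Without TS/A empty library 1 the counts were 56 higher and 11 lower (background 37.8% and 38.4%) with a median of 0.42, and without empty library 2 they were 30 higher and 31 lower (background 36.0% and 36.6%) with a median of 0.07. The 24 and the 10 were among those called in the same direction in both of these fits.

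Rps14, a small subunit protein, was the most increased. It had 2887, 3275, 1430 and 3597 RPKM in the TS/A libraries (the 2 labelled Gpr56 first), against 947, 927, 1036 and 1054 RPKM in the 4T1 libraries in the same order. Every TS/A library lay above every 4T1 library, and the log2 fold change was 1.51 ± 0.273 (SE; 2.85-fold, adjusted p = 0.00148, edgeR). Rpl22l1, the paralogue that can stand in for Rpl22, had 334, 428, 305 and 443 RPKM in TS/A, against 184, 132, 165 and 174 RPKM in 4T1, and rose by 1.20 ± 0.179 (adjusted p = 0.000534). Its parent Rpl22 had 708, 794, 518 and 994 RPKM in TS/A, against 713, 699, 803 and 892 RPKM in 4T1. The Rpl22 groups overlapped, with a log2 fold change of -0.03 ± 0.194 (adjusted p = 0.901), whose sign was positive in 3 of the fits that left out a library. Whether paralogue and parent differ in their line effect was not tested.

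Rps10 had 3059, 3706, 2193 and 3924 RPKM in TS/A, against 1298, 1234, 1538 and 1653 RPKM in 4T1, a rise of 1.15 ± 0.200 (adjusted p = 0.0012). Rps23, which sits in the decoding centre, had 1828, 1937, 1339 and 2250 RPKM, against 858, 868, 933 and 945 RPKM, a rise of 1.03 ± 0.176 (adjusted p = 0.00109). For Rpl17, at the mouth of the exit tunnel, the values were 1867, 2271, 1198 and 2637 RPKM in TS/A and 986, 920, 960 and 1053 RPKM in 4T1 (1.03 ± 0.244, adjusted p = 0.00602). Rpl32 had 3228, 3898, 2270 and 4331 RPKM in TS/A and 1624, 1681, 1796 and 1949 RPKM in 4T1 (0.96 ± 0.211, adjusted p = 0.00402). In all 4 the lowest TS/A library was empty 1, and it still lay above the highest 4T1 library. Rpl17 was at 0.64 without TS/A empty library 2.

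Rpl30, a large subunit protein, was the most decreased. It had 440, 463, 396 and 466 RPKM in TS/A, against 860, 863, 1016 and 1041 RPKM in 4T1, and fell by 1.06 ± 0.105 on the log2 scale (0.48-fold, adjusted p = 5.53e-05, edgeR). The TS/A libraries were close to each other, empty library 1 included. Rps26, at the mRNA exit channel, had 774, 660, 626 and 674 RPKM in TS/A, against 1150, 1181, 968 and 1113 RPKM in 4T1 (-0.70 ± 0.101, adjusted p = 0.000426). Rpl29 had 389, 379, 335 and 357 RPKM in TS/A, against 516, 511, 548 and 610 RPKM in 4T1 (-0.58 ± 0.088, adjusted p = 0.000567). These 3 genes stayed lower with each library left out. Rpl14 fell by 0.55 ± 0.144 (adjusted p = 0.00944) and Rpl37, a zinc-binding protein of the large subunit, by 0.47 ± 0.110 (adjusted p = 0.0056). Rpl10 fell by 0.54 ± 0.173 under its own name (adjusted p = 0.0234) and by 0.74 ± 0.116 with Rpl10-ps3 added (adjusted p = 0.000689). Under its own name it was not called without 4T1 empty 1, 4T1 Gpr56 1 or TS/A Gpr56 1.

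The remaining paralogues and parents differed less. Rps27l, which p53 induces, had 420, 477, 312 and 638 RPKM in TS/A, against 386, 337, 374 and 390 RPKM in 4T1 (0.31 ± 0.220, adjusted p = 0.241), and its parent Rps27 gave 0.32 ± 0.182 (adjusted p = 0.154). Both turned negative, at -0.12 and -0.15, once the length trend was removed. Rpl7l1 rose by 0.36 ± 0.135 (adjusted p = 0.0431) and Rpl7 by 0.48 ± 0.137 (adjusted p = 0.0142). Of 19 alternatives, Rpl7l1 missed the threshold in 7, limma-voom and all fits without 1 library other than a TS/A empty one, and ran from 0.18 to 0.51 over the fits without 1 library. Rpl7 missed it in 4, without either 4T1 empty library, 4T1 Gpr56 2 or TS/A Gpr56 2. Rpl3 was not called (0.28 ± 0.144, adjusted p = 0.117). Rpl3l, which in mouse is made in heart and skeletal muscle, had at most 0.233 RPKM in any library. With the 2 copies added, Rps18 was 1.28 ± 0.235 higher in TS/A (adjusted p = 0.00161), against 0.75 ± 0.269 under its own name (adjusted p = 0.0361). Rps12 with Rps12-ps3 was at 0.08 ± 0.210 (adjusted p = 0.765), against -0.42 ± 0.196 under its own name (adjusted p = 0.0892).

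Ribosomal protein genes have short transcripts, with a median of 722 nt (345 to 3706 nt), against 2832 nt for the other tested genes, and short genes as a class had higher medians in TS/A. Under 600 nt the median log2 fold change between lines was 0.37 for 26 ribosomal protein genes and 0.47 for 131 other genes. These became 0.56 and 0.51 without TS/A empty library 1, and 0.16 and 0.15 without empty library 2. From 600 to 800 nt it was 0.02 for 24 and 0.32 for 239. At 2000 nt and over, other genes had a median of -0.08. Removing each library's length trend left 19 ribosomal protein genes higher and 29 lower in TS/A (background 34.1% and 35.6%), with a median of -0.085. The 19 were all among the 24, and all 10 lower genes were among the 29. Within the ribosomal protein genes the fold change had little relation to length (Pearson r = -0.12 over 81 genes).

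**Figure D4:**
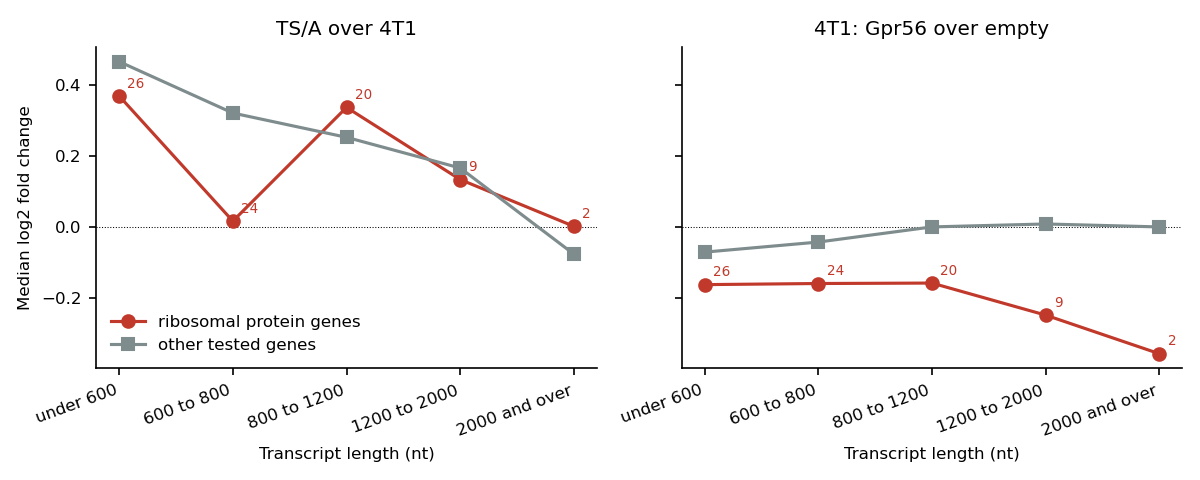
Median log2 fold change by class of transcript length (nt) for ribosomal protein genes (circles, with the number of genes) and other tested genes (squares), for TS/A over 4T1 (left) and Gpr56 over empty in 4T1 (right), from the fit of all 8 libraries. On the left both kinds of gene are highest under 600 nt, at 0.37 and 0.47, and on the right ribosomal protein genes lie below other genes in every class.

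Chromosomal position, which the naming rule did not use, went with the line difference. For each gene the median log2 fold change of the other tested genes on its chromosome was taken. Over 81 ribosomal protein genes the Pearson correlation with the gene's own fold change was 0.61 and the Spearman correlation 0.57, as a description, since genes of 1 chromosome and of the same libraries are not independent. It was 0.58 after removal of the length trend, 0.59 without TS/A empty library 1 and 0.64 without empty library 2. The 2 genes on chromosome 18, Rps14 and Rpl17, were both higher in TS/A, and the 306 other genes there had a median of 0.61. Rps23, the only one on chromosome 13, stood beside a median of 0.64 over 476 other genes. On chromosome 17, 5 of 7 were higher, Rps10 among them, and 594 other genes had a median of 0.36. At the other end, 0 of 14 genes on chromosome 7 were called, beside a median of -0.27, and chromosome 4 had 0 of 5 higher and 1 lower, beside a median of -0.34. Chromosome 15 held genes in both directions, Rpl30 at -1.06, Rpl37 at -0.47 and Rpl8 at 0.69, where 474 other genes had a median of -0.10.

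**Figure D5:**
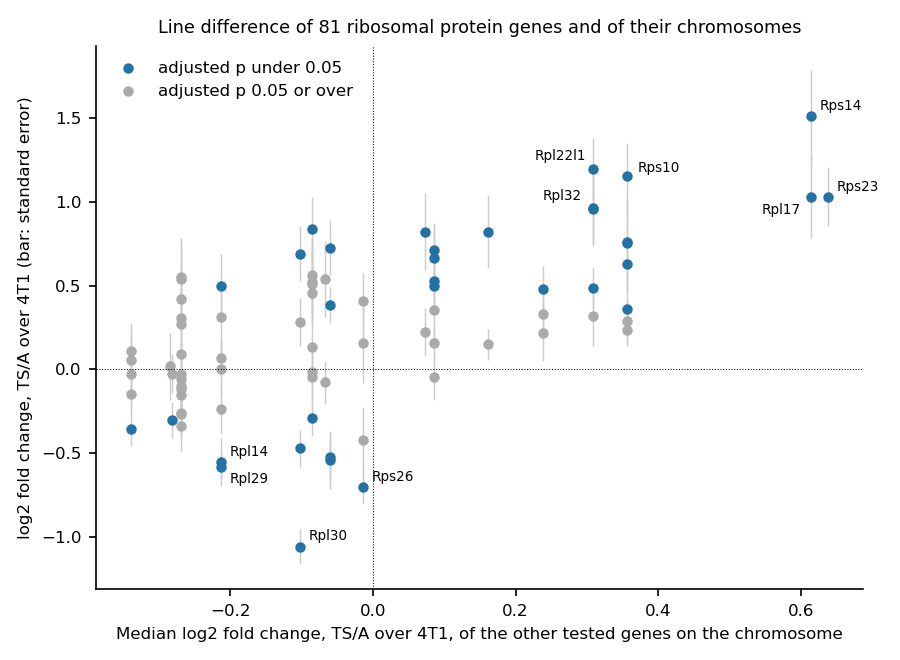
Log2 fold change between lines, TS/A over 4T1, of each of the 81 tested ribosomal protein genes (vertical axis, with the standard error) against the median of the other tested genes on the same chromosome (horizontal axis), in blue where adjusted p was under 0.05. Points rise from left to right (Pearson r = 0.61), with Rps14, Rpl17 and Rps23 at the upper right and Rpl30 lowest at -1.06.

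The related lists are given beside the background between lines of 32.8% of genes higher and 32.4% lower, and no difference from it was tested. Of the 21 other TOP-type translation genes, 3 were higher and 8 lower in TS/A, with a median of -0.17. Pabpc1 fell by 1.70 ± 0.109 (adjusted p = 4.57e-06) and Eif3l by 1.42 ± 0.077 (adjusted p = 1.83e-06), while the nascent chain factor Btf3 rose by 0.70 ± 0.152 (adjusted p = 0.00374) and Tpt1 by 0.71 ± 0.155 (adjusted p = 0.00404). Of 52 ribosome biogenesis genes, 25 were lower and 4 higher, with Utp14a at -1.40 and Rrp12 at -1.37. Regulators gave 9 higher and 6 lower of 23, led by Maf1, a repressor of RNA polymerase III, at 1.25 ± 0.100 (adjusted p = 1.63e-05). Mitochondrial ribosomal protein genes gave 27 higher and 9 lower of 77, and respiratory chain subunits 38 higher and 5 lower of 76, both with short transcripts (medians of 1219 and 766 nt). Without TS/A empty library 1 the counts higher and lower were 44 and 12 for the mitochondrial ribosomal proteins, 62 and 5 for the respiratory chain, 9 and 9 for the TOP-type genes, 8 and 35 for biogenesis and 11 and 7 for regulators. Without empty library 2 they were 28 and 26, 41 and 13, 4 and 12, 5 and 37, and 15 and 6 in the same order. Markers of other cell types moved with the line too. Of the fibroblast list, Col1a1 was at 202, 142, 328 and 131 CPM in TS/A, against 0.472, 1.05, 1.73 and 1.71 CPM in 4T1. Pdgfrb was at 5.35, 4.19, 9.43 and 1.84 CPM in TS/A, against 0, 0, 0 and 0.139 CPM in 4T1. Pdgfra had reads in both lines with overlapping levels, and Dcn, Lum, Col3a1, Thy1 and Fap were at or near 0 in both. The part of these markers in the line differences was not tested.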

How the data were processed

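RNA sequencing of 8 libraries was analysed, 2 per line and vector. The deposited read count of each of 65042 transcripts (the column of total gene reads, per the file headers) was summed per gene name. The deposited RPKM equalled that count divided by transcript length and 1 factor per library within 1% for 98.8 to 98.9% of transcripts with enough reads, per the file headers and values. For the aligner, the counting program and the build, the authors' choice is not given in the sources used here. Per the labels' protocols, RNA was extracted with RNeasy and libraries were made with TruSeq RNA v2, which does not mark strand, so antisense overlaps cannot be told apart. Lengths and coordinates came from GENCODE M21 (GRCm38), where 65023 transcripts were found, and start sites from RefSeq (GRCm38.p6), where 64 of the 84 genes matched.

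Tests used edgeR 4.0.16 (filterByExpr, TMM, glmQLFit, glmQLFTest) in R 4.3.3 on 4 group means, with Benjamini-Hochberg adjustment over all 11970 tested genes and a threshold of 0.05. The SE of a log2 fold change was taken as its size divided by the root of the F statistic. Levels in RPKM are sums over a gene's transcripts. CPM of markers and copies are of library totals, where 3 reads equal 0.116 to 0.285 CPM, and other CPM are TMM-scaled. Shares and ratios were compared by exact permutation of libraries, two-sided. Replicates were further apart than counting noise (a chi-square of 3.64 to 123 for each degree of freedom), so none was merged. The pipeline was tested on simulated data. Alternatives were DESeq2 1.42.0 (its size factors and its Wald test), limma-voom (limma 3.58.1), library totals, TMM without these genes, no filter or 10 CPM in 2 libraries, 1 line alone, the replicate number as a block, a loess length offset, added -ps reads, and each library left out. Combinations with 1 line alone, the addition of near-identical copies and the settings of the chromosome comparison were chosen after seeing the data.

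Genes, lists and tests were chosen with earlier results of these data known. Named genes were paralogues with reads and their parents, the 5 highest and 5 lowest by mean RPKM, up to 6 per direction past the threshold whose groups do not overlap (from 1 line alone where none passed), and up to 2 per direction from each other list by smallest p. Genes with copies, Rps15a, Rps27rt and the genes named by chromosome or in the figures were named after their values were seen. Python 3.11.15 with scipy 1.17.1 was used for summaries.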

Additional observations from a re-analysis of the deposited data

Results flagged for a closer look

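Reads listed under names that the naming rule leaves out made up a large part of the signal for 5 ribosomal protein genes. Over the 8 libraries, near-identical copies held 97.9% of the joint reads for Rps12, 89.3% for Rps18, 73.6% for Rpl10, 56.95% for Rpl35 and 18.02% for Rpl21. These reads lie outside the main comparison, were present in every library, the empty vector ones included, and are far above the 3 reads that a count of 0 allows.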

How the results depend on the processing

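The 4T1 vector effect rested on which libraries shared a fit. With all 8 libraries, 0 ribosomal protein genes were called higher or lower in 4T1 under each alternative that kept all 8 libraries. In 4T1 alone 43 were lower, 34 with library totals, 30 with the length offset, 43 with -ps reads added and 44 with near-identical copies added, and 1 and 3 were higher with library totals and with the length offset. The median of -0.16 became -0.13 with library totals and with the length offset, in either fit. Leaving out 1 library in turn, the count of lower genes ran from 0 to 9 with all others in the fit (9 without either TS/A empty library, 0 without any other) and from 17 to 56 in 4T1 alone (31 without empty 1, 17 without empty 2, 56 without Gpr56 1, 43 without Gpr56 2). The count of higher genes ran from 0 to 4, and was 1 without empty 2 and 4 without Gpr56 1. The median ran from -0.20 to -0.14. Each fit that left out a library had 1 group with a single library, which is assumed to vary like the others.

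In TS/A, leaving out 1 library gave 0 to 68 higher and 0 to 3 lower genes, with medians from -0.22 to 0.58. The 68 and 49 higher genes came without empty library 2 (all others, and TS/A alone, with medians of 0.56 and 0.58), and the 3 lower genes came without empty library 1 (median -0.22). The difference between vector effects gave 0 to 69 higher and 0 lower, with medians from -0.040 to 0.73. Between lines, the counts ran from 16 to 56 higher and from 6 to 31 lower, with medians from 0.07 to 0.42. The 6 lower came without 4T1 empty 1, 4T1 Gpr56 1 or TS/A Gpr56 1, the 31 lower without TS/A empty 2 and the 56 higher without TS/A empty 1. Other values that moved were 37 higher with no filter (4154 of 15815 tested genes), and 29 lower and a median of -0.085 with the length offset. The line difference in subunit ratio was -0.0501 without Rplp1, and the 4T1 difference in share was -1.26 percentage points of summed RPKM, against -0.768 points of reads.

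Among named genes, Rps27 and Rps27l reversed between lines with the length offset (-0.15 and -0.12), and Rps27l also without TS/A empty 2 (range -0.044 to 0.55). Rpl22 between lines ran from -0.33 to 0.18, with 0.0046 without 4T1 empty 2, 0.18 without TS/A empty 1 and 0.02 without TS/A Gpr56 1. Rpl22l1 in 4T1 ran from -0.40 to 0.092, with 0.092 and, in 4T1 alone, 0.089 without 4T1 Gpr56 2. The cause of these changes was not tested.

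Replicate numbers repeat in every group. Deviations of same-numbered libraries correlated at -0.04 in 4T1 and 0.38 in TS/A over all genes. Over the ribosomal protein genes the values were -0.26 and 0.32. With 2 pairs per line these cannot settle whether the numbers mark pairs, and the main fit did not use them as pairs. With the replicate block, 38 ribosomal protein genes were higher and 14 lower between lines (4165 and 4128 of 11970 tested genes). With the block, 39 were lower in 4T1 alone (1382 of 11361 tested genes) and 1 was higher in TS/A alone (20 of 11276). Depth of 10510569 reads in 4T1 Gpr56 library 2 sets the widest counting error.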
